A study of Homo sapiens with 11 samples.

Results

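The 49 genes described here encode the machinery that copies DNA. They were chosen by symbol, as the rows of the deposited expression table that carry these names, and make up 49 of the 38021 genes of the table and 49 of the 17793 genes with enough counts to be tested, since all 49 passed the filter on low counts. They fall into 6 classes: origin licensing (8 genes), the replicative helicase (13), the DNA polymerases (9), the sliding clamp, its loader and strand processing (11), nucleotide supply and uracil removal (4) and S-phase control (4). RNA sequencing was done on HEK293T, a human embryonic kidney line labelled wild type, after 6 h of treatment in 10 cm plates. Vehicle cells received 0.1% DMSO. The other conditions were 500 nM Tg (the series' abbreviation for thapsigargin, a drug that empties the calcium store of the endoplasmic reticulum and so impairs protein folding there), 10 µM AA147, and AA132 at 0.1, 0.3, 1, 3, 6, 10, 15 or 30 µM. AA147 and AA132 are compounds known here by their code names, which the series title places among regulators of endoplasmic reticulum proteostasis. All 11 conditions share the line, the genotype, the medium and the time. The labels list 1 sample per condition and the table holds 3 numbered columns for each, called libraries here. Nothing says whether these are separate cultures, so p-values measure only the spread between these libraries, which may be technical.

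Replication is prepared when the origin recognition complex, with CDC6 and CDT1, loads the MCM ring onto DNA, a step known as licensing. In S phase CDC45 and the GINS complex join the ring and turn it into the active helicase, polymerase alpha with primase starts each strand, and polymerases delta and epsilon extend it while held on the template by the PCNA clamp. Ribonucleotide reductase and thymidylate synthase supply the nucleotides. Many of these genes are transcribed at the border of G1 and S phase by E2F factors, and in cultured lines such as HEK293T they are expressed throughout because the cells divide. In bulk RNA, fewer cells in a phase of the cycle and less RNA per cell cannot be told apart.

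Promoter windows of 300 bases, from 250 before to 50 after each start site in the RefSeq table on GRCh38.p14, were present for 42 of the 49 genes. MCM4, MCM5, GINS4, POLD3, RPA2, RPA3 and CCNE2 had no entry. The windows were searched on both strands for E2F-type letters, the runs TTTGGCGC, TTTCGCGC, TTTCCCGC and TTTGCCGC. At least 1 match was found in 21 of 42 windows (50%), against 3.33% of all 27305 windows of the table. By class, 8 of 10 helicase windows, 4 of 8 polymerase windows, 3 of 8 licensing windows, 3 of 9 clamp, loader and strand processing windows, 2 of 3 S-phase control windows and 1 of 4 nucleotide supply windows held one. The CCAAT box (CCAAT, both strands) was in 26 of 42 (61.9%, against 35.7% of all windows), and the CHR letters that mark many mitotic promoters (TTTGAA or TTTAAA, both strands) were in 3 of 42 (7.14%, against 24.3%). These are matches of letters and not measured sites. The 230 bases from 200 before to 30 after the start are shown for 6 genes that moved under Tg, the 2 with the largest rise and 4 that fell, with matches to the E2F-type letters in capitals and the rest in lower case. Each is written 5′ to 3′ along the gene's own strand. CDC6 (chr17:40287679-40287908) and CDC45 (chr22:19479720-19479949) lie on the plus strand. ORC1 (chr1:52404394-52404623), MCM6 (chr2:135876414-135876643), MCM7 (chr7:100101368-100101597) and PCNA (chr20:5126593-5126822) lie on the minus strand. The 4 that fell are not those with the largest falls. CCNE1 (log2 fold change -0.63), without a match, and CLSPN (-0.47) are not shown, while MCM6 (-0.37) and MCM7 (-0.31) are. The windows shown therefore do not stand for all genes that fell.
CDC6: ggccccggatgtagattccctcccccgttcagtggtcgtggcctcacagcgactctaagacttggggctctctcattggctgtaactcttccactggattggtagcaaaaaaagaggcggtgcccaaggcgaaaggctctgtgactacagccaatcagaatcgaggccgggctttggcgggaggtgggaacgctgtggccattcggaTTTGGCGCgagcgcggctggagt
CDC45: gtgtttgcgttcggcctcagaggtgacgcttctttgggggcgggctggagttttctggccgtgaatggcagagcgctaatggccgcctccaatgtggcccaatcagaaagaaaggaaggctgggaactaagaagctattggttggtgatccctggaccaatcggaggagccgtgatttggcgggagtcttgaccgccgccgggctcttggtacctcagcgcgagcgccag
ORC1: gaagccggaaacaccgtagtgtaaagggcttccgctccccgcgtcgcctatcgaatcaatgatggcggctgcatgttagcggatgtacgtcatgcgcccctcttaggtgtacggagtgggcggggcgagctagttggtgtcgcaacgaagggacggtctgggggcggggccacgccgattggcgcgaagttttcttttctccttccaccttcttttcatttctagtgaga
MCM6: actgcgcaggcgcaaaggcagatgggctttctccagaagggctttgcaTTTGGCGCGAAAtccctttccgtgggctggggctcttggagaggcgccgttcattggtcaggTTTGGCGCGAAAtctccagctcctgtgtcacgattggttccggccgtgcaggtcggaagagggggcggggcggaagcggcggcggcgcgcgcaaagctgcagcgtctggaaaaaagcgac
MCM7: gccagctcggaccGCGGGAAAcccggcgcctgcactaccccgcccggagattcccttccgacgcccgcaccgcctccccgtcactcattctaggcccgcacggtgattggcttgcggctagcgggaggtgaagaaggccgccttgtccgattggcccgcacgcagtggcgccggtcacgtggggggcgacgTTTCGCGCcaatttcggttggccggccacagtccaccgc
PCNA: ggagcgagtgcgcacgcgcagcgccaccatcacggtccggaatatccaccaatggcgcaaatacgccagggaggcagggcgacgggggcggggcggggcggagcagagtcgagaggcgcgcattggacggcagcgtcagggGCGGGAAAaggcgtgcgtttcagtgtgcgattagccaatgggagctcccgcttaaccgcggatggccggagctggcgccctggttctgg
CDC6 carries 1 match close to its start site, and CDC45 and ORC1 carry none. Close forms of the letters were not searched. The CDC6 and CDC45 windows also hold tttggcgg, and that of ORC1 holds attggcgc, all left in lower case. MCM6 carries 4 matches that overlap in pairs, because the letters TTTGGCGC and TTTCGCGC on the other strand share bases. MCM7 carries 2 matches and PCNA 1. The letters therefore occur in genes that rose and in genes that fell: 11 of the 19 windows of genes called lower under Tg, 1 of the 3 of genes called higher and 9 of the 20 of genes not called held a match.

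Library totals ran from 32.3 to 37.96 M counts, the second lowest being 36.4 M, and the 49 genes took 0.690% to 0.783% of them. The lowest count of any of them in a library was 217. Of 6 HEK293T markers, 5 reached 1 CPM (counts-per-million, scaled between libraries) in every library. Of markers of other cell types, those of blood, endothelial cells and hepatocytes summed to at most 0.133, 2.24 and 0.235 CPM. Those of fibroblasts summed to 19.8 to 50.4 CPM, nearly all from COL1A1 (19.6 to 50.2 CPM), while DCN was at most 0.0811 CPM. The part of COL1A1 in the results was not tested. The first vehicle library stood apart: its root mean square distance from the vehicle mean was 0.354 on the log2 scale over all genes, against 0.298 and 0.274 for the other two, and 0.166 over the 49 genes, against 0.107 and 0.0882. Its distance went with transcript length (Spearman's rho across genes -0.56, a description only) and GC content (rho 0.59). The other two vehicle libraries went the other way (rho 0.47 and 0.42 with length, -0.57 and -0.31 with GC content). The first library of 10 µM AA132 and the first of AA147 also lay farther from their group means over the 49 genes (0.141 and 0.112) than the others of their groups (at most 0.0865 and 0.0719). Every comparison was refitted without each library in turn. Without either of these first libraries, 0 of 49 genes were called in the comparison of its own group with vehicle, as with them.

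**Figure D1:**
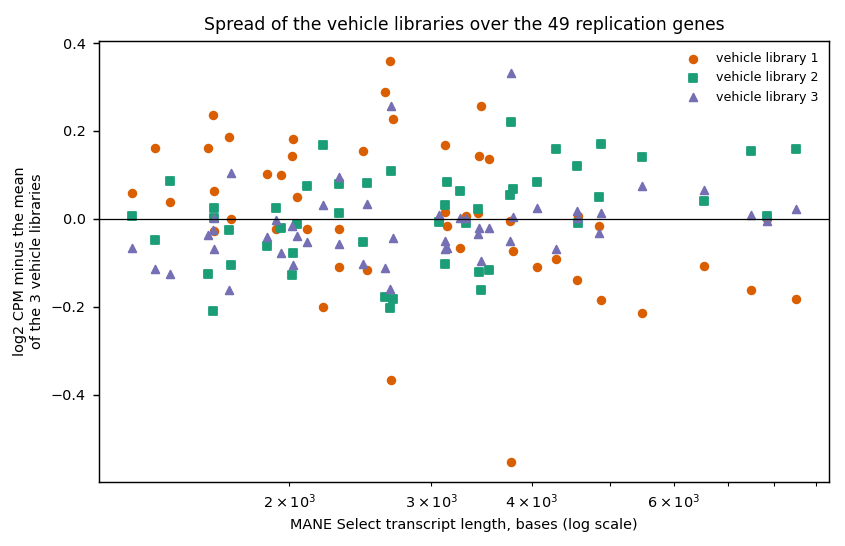
Distance of each vehicle library from the mean of the 3 vehicle libraries (y axis, log2 CPM) for the 49 genes, against the length of the gene's MANE Select transcript (x axis, bases, log scale). Each point is 1 gene in 1 library. The first library (circles) lies above the mean for many short transcripts and below it for most of the longest.

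All levels below are means ± SD of 3 libraries in CPM, and every difference is a log2 fold change with its standard error from edgeR's quasi-likelihood test, adjusted by Benjamini and Hochberg over all genes tested. A gene is said to have risen or fallen, or is named as called, where its adjusted p was under 0.05. All comparisons with vehicle use the same 3 vehicle libraries. Per kilobase of transcript, MCM7 had the highest level in vehicle cells at 366 ± 35.5 CPM per kb, ahead of PCNA at 273 ± 11.7 and POLD2, the regulatory subunit of polymerase delta, at 198 ± 31.0. The lowest levels were those of GINS4 at 2.42 ± 0.726, GINS3 at 7.84 ± 0.991 and ORC4 at 8.34 ± 0.533 CPM per kb. On the same scale CDC6 stood at 44.05 ± 0.235, ORC1 at 16.0 ± 0.475 and RRM2 at 70.4 ± 3.15 CPM per kb.

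Tg was the treatment with the most of these genes called. CDC6 rose 2.25-fold and CDC45 and RFC1 rose as well, while 21 genes fell, among them all 6 subunits of the MCM2 to MCM7 ring, PCNA, ORC1 and CCNE1. In all, 24 of 49 genes passed the test, 3 higher and 21 lower. Over all 17793 genes 31.2% were called, 16.2% higher and 15% lower. The median log2 fold change was -0.18 over the 49 genes and 0.005 over all genes. The 24 counted 22 to 27 when any single library was left out, and 5 when a change of at least 0.5 on the log2 scale was also required. When only Tg and vehicle were fitted, 8 of these calls were lost: ORC2, MCM10, PRIM2, POLD1, POLE, FEN1, LIG1 and TYMS.

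**Figure D2:**
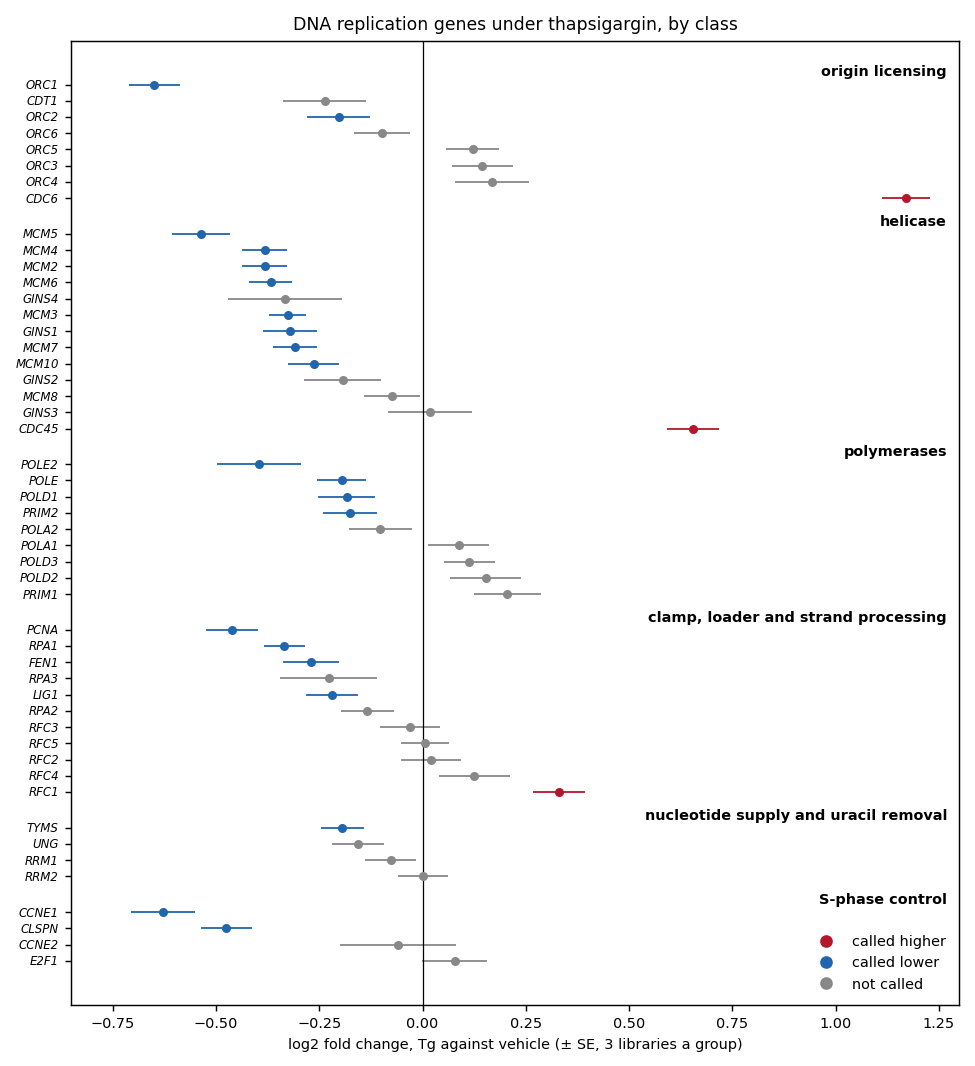
Log2 fold change of each of the 49 genes in Tg against vehicle (x axis; bars are ± 1 SE, 3 libraries a group), sorted within class (y axis). CDC6, CDC45 and RFC1 lie to the right among the called genes, and the 21 genes called lower lie between -0.18 and -0.65.

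In origin licensing, CDC6 and ORC1 moved in opposite directions. CDC6, the ATPase that bridges the origin recognition complex and the MCM ring (chr17:40287879-40304657, plus strand in GENCODE on GRCh38), was at 202, 199.8 and 201 CPM in the 3 vehicle libraries and at 448, 452 and 457 with Tg. Every Tg library lay above every one of the other 30 libraries, which ranged from 188 to 221 CPM. The mean went from 201 ± 1.07 to 452 ± 4.96, a 2.25-fold rise (log2 fold change 1.17 ± 0.06, adjusted p = 2.40e-17). ORC1, the largest subunit of the origin recognition complex (chr1:52372829-52404423, minus strand), was at 50.5, 51.1 and 48.3 CPM in vehicle and 31.9, 30.2 and 33.4 with Tg, with no overlap. It fell by 36.2% (log2 fold change -0.65 ± 0.06, adjusted p = 3.72e-10). ORC2, another subunit, was at 104, 124 and 106 CPM in vehicle and 98.6, 93.5 and 97.2 with Tg, so the highest Tg library lay just under the lowest vehicle library. Its fall (log2 fold change -0.20 ± 0.08, adjusted p = 0.0387) was lost without the second vehicle library (-0.14, adjusted p = 0.192) and without the second or the third Tg library. The subunits ORC3, ORC4, ORC5 and ORC6 and the licensing factor CDT1 were not called, with log2 fold changes of 0.15, 0.17, 0.12, -0.10 and -0.24. CDT1 had a first vehicle library at 120.1 CPM beside 81.4 and 83.9 in the other two, and Tg libraries from 78.8 to 82.9. It was not called without that first vehicle library. CDT1 was called lower without the second vehicle library (-0.36, adjusted p = 0.0082) or the third (-0.32, 0.0239), without the first library of 10 µM AA132 (-0.25, 0.0346) or of AA147 (-0.25, 0.0494), with library totals only (-0.27, 0.0287) and with no filter (-0.25, 0.0107). All of these fits kept the first vehicle library. The class held 1 gene called higher and 2 called lower of 8, with a median of 0.01.

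Of the 13 helicase genes, 8 fell and 1 rose, with a median of -0.32. The 6 subunits of the ring, MCM2, MCM3, MCM4, MCM5, MCM6 and MCM7, were all called lower, by 19.2% to 31.0%, with a median log2 fold change of -0.37, and all 6 calls held whichever library was left out. MCM5 (chr22:35400134-35425431, plus strand) was at 275, 206 and 216 CPM in vehicle and 157, 159 and 165 with Tg. The first vehicle library was the highest of the 33, and the fall of -0.54 ± 0.07 (adjusted p = 2.67e-07) was -0.40, adjusted p = 9.87e-07 without it. MCM4 was at 264, 302 and 289 CPM in vehicle and 218, 224 and 214 with Tg, all Tg libraries being lower (log2 fold change -0.38 ± 0.06, adjusted p = 1.61e-06). MCM2 was at 214, 215 and 207 CPM in vehicle and 161, 159 and 168 with Tg. Its groups did not overlap either (log2 fold change -0.38 ± 0.05, adjusted p = 1.11e-06). MCM6 fell by 22.5%, MCM3 fell by 20.2% and MCM7 fell by 19.2%. MCM10, which helps to activate the loaded helicase, fell by 16.7% (adjusted p = 0.00119), a call lost with only the 2 conditions fitted (adjusted p = 0.0663). MCM8, a paralog linked to repair by recombination, did not pass the test (log2 fold change -0.07).

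CDC45, the helicase cofactor that is loaded when an origin fires (chr22:19479457-19520612, plus strand), rose while 8 genes of its class fell. It was at 127, 113 and 115 CPM in vehicle and 193, 188 and 179 with Tg, all 3 Tg libraries lying above the range of the other 30 (97.9 to 127 CPM). The rise was 1.57-fold (log2 fold change 0.66 ± 0.06, adjusted p = 4.89e-10). Of the GINS subunits, which travel with CDC45 and the ring, GINS1 fell by 19.9% (adjusted p = 0.000232), while GINS2, GINS3 and GINS4 were not called, with log2 fold changes of -0.19, 0.02 and -0.33. GINS2 was called lower without the second vehicle library (-0.30, adjusted p = 0.0182), with library totals only (-0.23, 0.0397) and with no filter (-0.21, 0.0452). GINS4 was the gene with the fewest counts, at 6.01, 10.3 and 11.1 CPM in vehicle and 7.47, 6.93 and 7.38 with Tg. Without the low first vehicle library it passed the test (log2 fold change -0.57, adjusted p = 0.000156).

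Of the 9 polymerase genes, 4 fell and none rose, with a median of -0.10. POLE2, the second subunit of polymerase epsilon, was at 15.3, 14.2 and 16.4 CPM in vehicle and 12.2, 11.8 and 11.002 with Tg, with no overlap (log2 fold change -0.40 ± 0.10, adjusted p = 0.00296). POLE, its catalytic subunit, was at 198, 199 and 198 CPM in vehicle and 179, 172 and 169.5 with Tg. Its 3 Tg libraries lay below all others (log2 fold change -0.20 ± 0.06, adjusted p = 0.0108). The POLE call was lost with only the 2 conditions fitted (adjusted p = 0.0741). POLD1, the catalytic subunit of polymerase delta, was at 185, 154 and 166 CPM in vehicle and 143, 151 and 150.3 with Tg. Its call (log2 fold change -0.18 ± 0.07, adjusted p = 0.0399) was lost without any 1 of 5 libraries, namely any Tg library or the first (-0.12, adjusted p = 0.227) or the third vehicle library. PRIM2, the large primase subunit, fell by 11.5% (adjusted p = 0.0392), a call lost without the second vehicle library (-0.15, adjusted p = 0.105) or the third Tg library. POLA1 and POLA2 of polymerase alpha, the primase catalytic subunit PRIM1, and POLD2 and POLD3 of polymerase delta were not called, with log2 fold changes of 0.09, -0.10, 0.21, 0.15 and 0.11. POLD2 passed the test without the first vehicle library (0.27, adjusted p = 0.0102), and PRIM1 without the second (0.23, adjusted p = 0.0483) or without the first library of 10 µM AA132 (0.19, adjusted p = 0.0364).

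PCNA, the sliding clamp (chr20:5114953-5126626, minus strand), was at 362, 349.6 and 333 CPM in vehicle and 247, 255 and 257 with Tg. Its Tg libraries lay below the range of the other 30 (296 to 362 CPM), a fall of 27.3% (log2 fold change -0.46 ± 0.06, adjusted p = 5.51e-07). RFC1, the large subunit of the clamp loader, was at 94.6, 121 and 109 CPM in vehicle and 138, 131.8 and 138 with Tg, where all 3 were higher. It rose 1.26-fold (log2 fold change 0.33 ± 0.06, adjusted p = 8.88e-05), while the small loader subunits RFC2, RFC3, RFC4 and RFC5 were not called, with log2 fold changes of 0.02, -0.03, 0.13 and 0.01. RPA1, the large subunit of the complex that covers single strands, was at 293, 307 and 290.3 CPM in vehicle and 238, 230.5 and 238 with Tg, with no overlap (log2 fold change -0.33 ± 0.05, adjusted p = 2.66e-06). Its partners RPA2 and RPA3 were not called (-0.13 and -0.23). RPA2 was called lower without the second vehicle library (-0.21, adjusted p = 0.0144) and with library totals only (-0.17, 0.0297), and RPA3 with no filter (-0.24, 0.0274). FEN1, which trims the flaps of Okazaki fragments, was at 125, 103 and 112 CPM in vehicle and 91.4, 98.7 and 91.9 with Tg. It fell by 17.1% (adjusted p = 0.00245), a call lost with only the 2 conditions fitted (adjusted p = 0.0738). LIG1, the ligase that seals these fragments, fell by 14.1% (adjusted p = 0.00715), a call lost without the first vehicle library (-0.14, adjusted p = 0.0855). The class held 1 gene called higher and 4 called lower of 11, with a median of -0.13.

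In nucleotide supply, 1 gene fell. TYMS, thymidylate synthase, was at 239, 229 and 218 CPM in vehicle and 194, 202 and 204 with Tg, with no overlap, and fell by 12.6% (log2 fold change -0.19 ± 0.05, adjusted p = 0.0039). That call was lost with only the 2 conditions fitted (adjusted p = 0.0926). RRM2, the regulated subunit of ribonucleotide reductase, was at 219, 239 and 229 CPM in vehicle and 228, 228 and 232 with Tg. The Tg libraries lay inside the vehicle range (log2 fold change 0.00 ± 0.06). RRM1, the large subunit of that enzyme, and UNG, which removes uracil from DNA, were not called (-0.08 and -0.16). UNG lay near the threshold: it was called lower by DESeq2 (-0.16, adjusted p = 0.0324), with library totals as the only scaling (-0.19, 0.00923), with the replicate block (-0.16, 0.0446) and when any of 4 libraries was left out (adjusted p from 0.0139 to 0.0421). Of the 4 genes, 1 was called, and the median was -0.12. TYMS shares 60.0% of its exon bases with ENOSF1 on the opposite strand. Since the use of strand in counting is not given, reads of the shared bases cannot be told apart. CCNE2 shares 56.9% with INTS8 on the opposite strand. MCM2, GINS3 and GINS4 (opposite strand) and POLA2, PRIM1, POLD1 and MCM8 (same strand) share 12.4% to 55.8% of their exon bases with other annotated genes, so their values carry the same limit.

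Among the S-phase control genes, the early cyclin CCNE1 and the checkpoint adaptor CLSPN fell. CCNE1, cyclin E1, which drives entry into S phase (chr19:29811991-29824312, plus strand), was at 68.8, 63.3 and 60.9 CPM in vehicle and 41.8, 41.3 and 41.7 with Tg. The 3 Tg libraries lay within 1 CPM of each other and below the range of the other 30 libraries (54.4 to 74.2 CPM), a fall of 35.3% (log2 fold change -0.63 ± 0.08, adjusted p = 7.57e-08). CLSPN, claspin, which passes the replication stress signal from ATR to CHK1, was at 135, 171 and 156 CPM in vehicle and 109, 113 and 111 with Tg, with no overlap (log2 fold change -0.47 ± 0.06, adjusted p = 2.79e-07). CCNE2, the second cyclin E, was at 24.9, 34.6 and 38.3 CPM in vehicle and 31.8, 31.3 and 30.7 with Tg, inside the vehicle range. E2F1, a transcription factor that drives many genes of this list, was at 78.0, 58.7 and 64.6 CPM in vehicle and 71.4, 71.3 and 69.7 with Tg. The groups overlapped only through the high first vehicle library, and E2F1 passed the test without it (log2 fold change 0.19, adjusted p = 0.0454), where all libraries gave 0.08.

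The Tg libraries were also set against all 30 libraries of the other conditions. For 3 genes (CDC6, CDC45 and RFC1) all 3 Tg libraries lay above the range of the 30, and for 15 genes they lay below it: ORC1, MCM2, MCM3, MCM4, MCM5, MCM6, GINS1, POLE, POLE2, PCNA, RPA1, FEN1, TYMS, CLSPN and CCNE1. The 18 are 36.7% of the 49 genes, and the same held for 18.1% of all genes tested. Genes below the range made up 30.6% of the 49 and 7.85% of all genes, genes above it 6.12% and 10.3%.

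**Figure D3:**
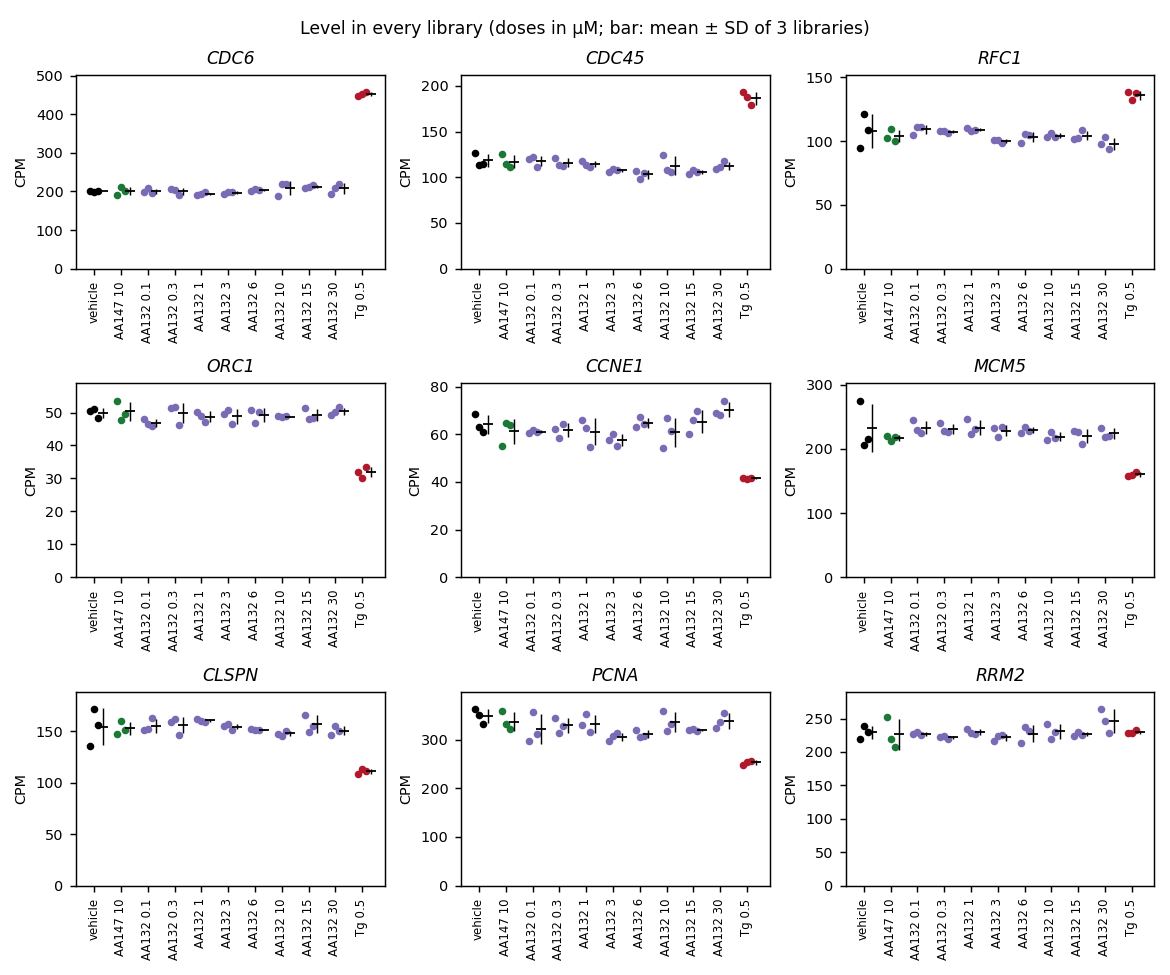
CPM of 9 genes (y axis, from 0) in every library of the 11 conditions (x axis, doses in µM). Points are libraries and the bar beside them is the mean ± SD of 3. The Tg libraries of CDC6, CDC45 and RFC1 lie above all others, those of ORC1, CCNE1, MCM5, CLSPN and PCNA below, and those of RRM2 among the rest.

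A further 4 lists of cell cycle genes were read beside the 49 under Tg, where 31.2% of all genes were called. Of 25 other replication factors, 2 rose and 7 fell, with a median of -0.06. The risers were DONSON, which helps to load CDC45 and GINS, whose mean went from 143 ± 6.61 to 187 ± 4.26 CPM, a log2 fold change of 0.38, adjusted p = 6.67e-06, and POLE3, a histone-fold subunit of polymerase epsilon, from 267 ± 7.11 to 306 ± 7.02 (0.20, adjusted p = 0.00595). The largest falls were those of the helicase-nuclease DNA2 from 73.9 ± 15.2 to 54.6 ± 1.00 CPM (-0.44, adjusted p = 0.00116), the alternative clamp loader subunit CHTF18 from 53.2 ± 10.5 to 39.6 ± 1.91 (-0.42, adjusted p = 0.0133) and the histone chaperone CHAF1A from 186 ± 14.0 to 146 ± 8.26 (-0.35, adjusted p = 4.20e-05). Of 10 other nucleotide supply enzymes 4 were called, all lower, with a median of -0.19. Thymidine kinase TK1 went from 101 ± 18.7 to 83.0 ± 2.95 CPM (-0.28, adjusted p = 0.00891) and CTP synthase CTPS1 from 249.98 ± 26.4 to 206 ± 4.51 (-0.28, adjusted p = 0.000531).

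Of 12 genes of the E2F and RB families, 3 rose and 3 fell, with a median of 0.05. E2F7, a repressor of this family, went from 55.8 ± 16.9 to 101 ± 2.66 CPM (0.85, adjusted p = 1.55e-06), the pocket protein RBL1 from 46.5 ± 12.9 to 58.3 ± 2.61 (0.33, adjusted p = 0.0314) and the repressor E2F6 from 29.6 ± 1.31 to 34.2 ± 1.49 (0.21, adjusted p = 0.0224). The activators E2F2, from 8.52 ± 0.634 to 6.17 ± 0.820 CPM (-0.46, adjusted p = 0.00951), and E2F3, from 175 ± 22.4 to 149.9 ± 2.98 (-0.22, adjusted p = 0.012), fell, as did the repressor E2F8, from 29.6 ± 3.32 to 23.1 ± 0.767 (-0.35, adjusted p = 0.00317). Of 20 mitotic genes 9 fell and none rose, with a median of -0.17. The largest falls were those of cyclin B1 (CCNB1), from 367 ± 19.9 to 267 ± 3.39 CPM (-0.46, adjusted p = 5.58e-08), the spindle checkpoint kinase BUB1B, from 170.1 ± 11.7 to 128 ± 4.93 (-0.41, adjusted p = 1.44e-06), and the kinesin KIF20A, from 158 ± 10.7 to 124 ± 3.96 (-0.35, adjusted p = 4.46e-05). With only the 2 conditions fitted, 3 other replication factors, 1 nucleotide supply enzyme, 3 E2F and RB genes and 4 mitotic genes were called. Only 1 E2F or RB gene rose without the first Tg library, and likewise without the third. For RBL1 and E2F3 the Tg and vehicle libraries overlapped. The part of these lists in the levels of the 49 genes was not tested.

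No gene of the 49 was called with AA147 or with AA132 up to 10 µM. With 10 µM AA147, 0 of 49 were called by edgeR's quasi-likelihood test and 0 by DESeq2, 4 had an unadjusted p under 0.05 (ORC4, MCM8, RFC2 and LIG1), and 0.0225% of all genes were called. The log2 fold changes ran from -0.16 (RFC2) to 0.19 (ORC4), with a median of -0.02, and the 95% intervals of all 49 lay between -0.36 and 0.47. With AA132, 0 of 49 were called at each of 0.1, 0.3, 1, 3, 6 and 10 µM by edgeR. Those with an unadjusted p under 0.05 numbered 1, 3, 4, 9, 6 and 7 in that order. DESeq2 called 0 up to 6 µM and 1, MCM7, at 10 µM. At 10 µM a single gene was also called when any of 4 libraries was left out: ORC4 without the first AA147 library (0.28, adjusted p = 0.0468), and RPA2 (0.24, 0.0224), POLD2 (-0.35, 0.0275) or MCM7 (-0.22, 0.0477) without the first, the second or the third vehicle library. The shares of all genes called by adjusted p were 0%, 0%, 0%, 0.118%, 1.07% and 1.41%. The share of all genes with an unadjusted p under 0.05 is not given here. The unadjusted counts for AA147 and AA132 therefore have no background.

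At the higher doses of AA132 some subunits of the MCM ring fell, 2 of 6 at 15 µM and 3 of 6 at 30 µM. At 15 µM, 2 of 49 genes were called, both lower, where 2.76% of all genes were called (1.97% higher and 0.792% lower). MCM7 was at 1004, 869 and 839 CPM in vehicle and 746, 788 and 741 at 15 µM. All 3 treated libraries were lower than any vehicle library (log2 fold change -0.25 ± 0.05, adjusted p = 0.00506). MCM3 was at 527, 525 and 530.5 CPM in vehicle and 491, 475 and 452 at 15 µM, with no overlap (log2 fold change -0.16 ± 0.04, adjusted p = 0.0431). When the 33 libraries were left out in turn, MCM3 missed the threshold 21 times. Without the first vehicle library MCM8 was called in its place (-0.26, adjusted p = 0.0169). MCM2, MCM4, MCM5 and MCM6 were not called, with log2 fold changes of -0.09, -0.02, -0.08 and -0.10. The count was 4 without the second vehicle library, with LIG1 (-0.26) and POLD2 (-0.32) added, and 0 when only the 2 conditions were fitted.

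At 30 µM, 6 of 49 genes were called, 1 higher and 5 lower, where 7.05% of all genes were called (3.86% higher and 3.19% lower). MCM7 was at 733, 733 and 765 CPM, MCM3 at 449, 459.8 and 464 CPM and MCM2 at 183, 185 and 191 CPM. Each of these groups lay below all of its vehicle libraries, with log2 fold changes of -0.28 ± 0.05 (adjusted p = 0.000989), -0.20 ± 0.04 (0.00336) and -0.19 ± 0.05 (0.03). MCM10 was at 86.8, 104 and 96.7 CPM in vehicle and 79.2, 86.9 and 82.9 at 30 µM, where the groups overlapped by the first vehicle library (log2 fold change -0.21 ± 0.06, adjusted p = 0.0366). LIG1 was at 136, 113 and 116 CPM in vehicle and 98.9, 96.4 and 112 at 30 µM (log2 fold change -0.25 ± 0.06, adjusted p = 0.013). ORC5, a subunit of the origin recognition complex, was at 59.4, 61.5 and 60.3 CPM in vehicle and 68.2, 68.0 and 73.2 at 30 µM, all 3 treated libraries being higher (log2 fold change 0.21 ± 0.06, adjusted p = 0.0414). The ring subunits MCM4, MCM5 and MCM6 were not called (log2 fold changes -0.10, -0.05 and -0.08, adjusted p = 0.29, 0.737 and 0.364). Of the 6 calls only MCM3 and MCM7 held whichever library was left out. Without the first vehicle library the count was 10 (2 higher and 8 lower), with CDT1 (0.25), RPA2 (0.24), POLA1 (-0.29), MCM8 (-0.28), ORC2 (-0.24) and RFC1 (-0.23) called and LIG1 and ORC5 not. The count was 3 without the second, 2 and 3 without the first and second 30 µM library, and 0 when only the 2 conditions were fitted. The median over the 49 genes was -0.05, and all 95% intervals lay between -0.40 and 0.41.

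**Figure D4:**
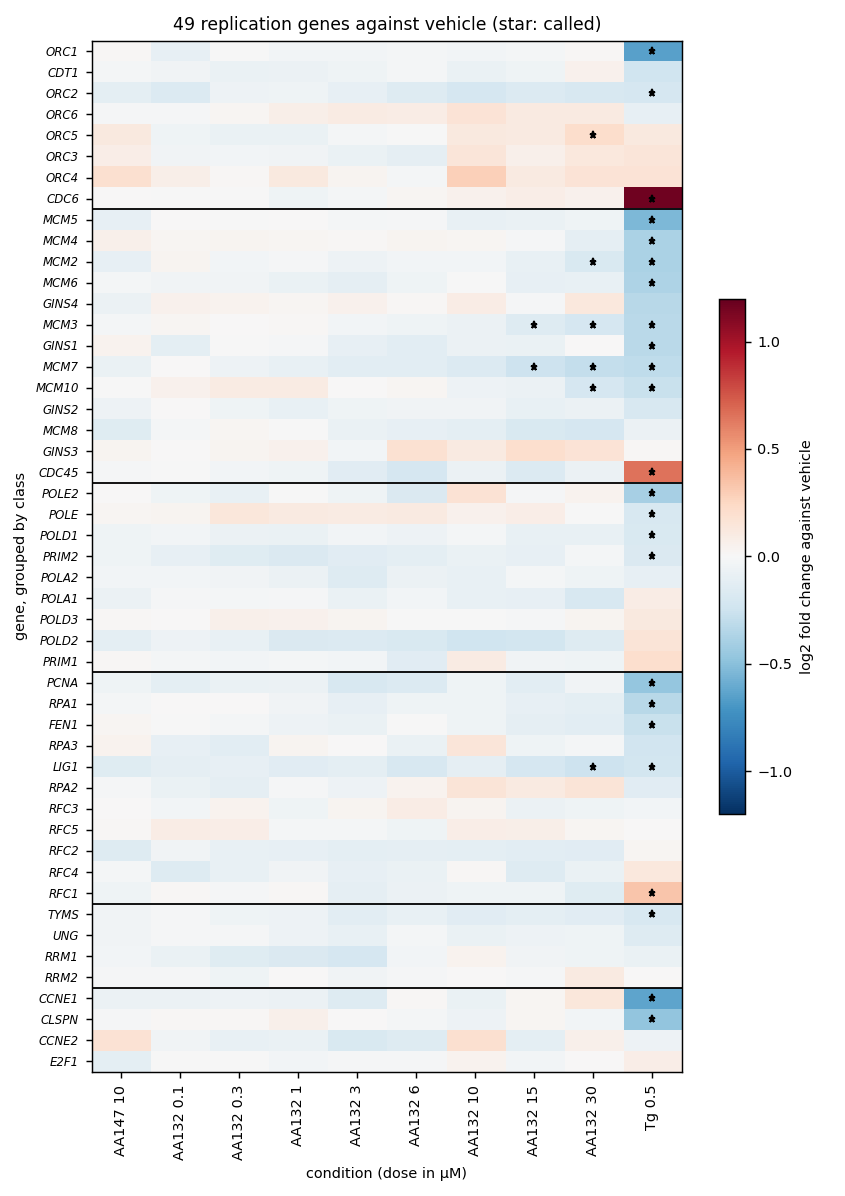
Log2 fold change against vehicle (colour) of the 49 genes (rows, grouped by class) in the 10 treatments (columns, doses in µM). Stars mark called genes: 24 with Tg, 6 at 30 µM and 2 at 15 µM AA132, and none in the other columns.

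The slope on log10 dose over the 24 AA132 libraries does not use the vehicle libraries. It was called for 12 of 49 genes, 3 rising and 9 falling, where 18.7% of all 17554 genes tested were called (9.83% rising and 8.89% falling). The steepest fall was that of MCM7, whose mean CPM was 908, 864, 852, 831, 828, 805, 759 and 744 from 0.1 to 30 µM. The slope was -0.10 ± 0.02 per log10 unit of dose (adjusted p = 7.27e-06). MCM10 had means of 99.1, 102, 102, 96.1, 97.5, 92.1, 90.9 and 83.0 CPM over the same doses. Its slope was -0.09 ± 0.02 (adjusted p = 0.00106), and its lowest level was at the top dose. MCM8 was at 114, 109 and 123 CPM at 0.1 µM and 101, 107 and 98.9 at 30 µM, groups that did not overlap, with a slope of -0.08 ± 0.02 (adjusted p = 0.00118). MCM3 was at 536, 535 and 538 CPM at 0.1 µM and 449, 459.8 and 464 at 30 µM, with a slope of -0.08 ± 0.02 (adjusted p = 0.000253). The other genes with a called falling slope were MCM2 (-0.06), POLA1 (-0.06), RFC1 (-0.05), RPA1 (-0.05) and TYMS (-0.05). When the 24 libraries were left out in turn, these 5 genes missed the threshold 4, 15, 4, 7 and 3 times.

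ORC5 rose with dose, with means of 58.1, 57.3, 57.1, 59.3, 60.4, 65.5, 65.0 and 69.8 CPM from 0.1 to 30 µM and a slope of 0.11 ± 0.02 (adjusted p = 0.00033). RPA2, the middle subunit of the single-strand binding complex, had means of 97.7, 96.0, 103, 99.4, 106, 115, 111 and 115 CPM and a slope of 0.11 ± 0.02 (adjusted p = 7.11e-05). Both genes were highest from 10 µM up, RPA2 reaching at 10 µM a level near that at 30 µM. ORC6, the smallest subunit of the origin recognition complex, was at 78.2, 78.2 and 75.5 CPM at 0.1 µM and 87.8, 79.5 and 85.4 at 30 µM (slope 0.06 ± 0.02, adjusted p = 0.0473), which missed the threshold 16 times when the 24 libraries were left out in turn. The median slope of the 49 genes was -0.01 and that of all genes 0.001. The count was 6 without the first 30 µM library, 8 without the whole 30 µM dose, and 0 with a minimum change of 0.5 per log10 unit of dose. Without that dose 6 of the 12 slopes were no longer called, ORC6 (0.07), MCM2 (-0.03), POLA1 (-0.04), RFC1 (-0.04), RPA1 (-0.04) and TYMS (-0.05), while CDC45 (-0.07) and POLD2 (-0.07) were called as falling.

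**Figure D5:**
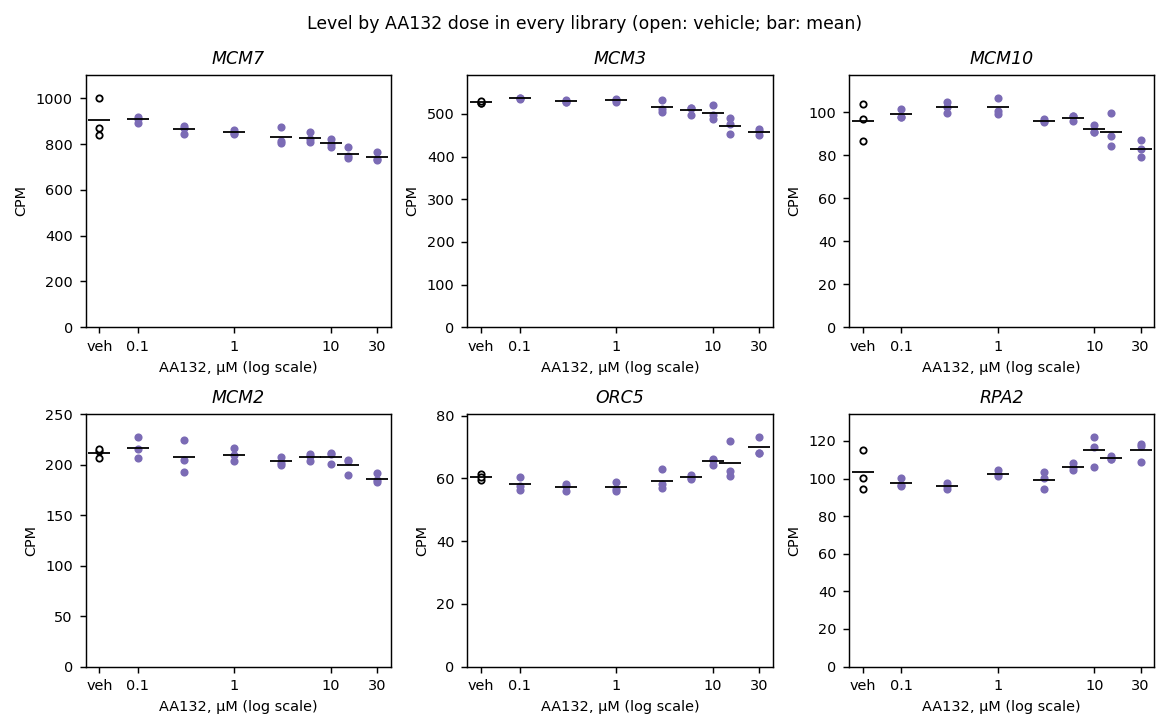
CPM of 6 genes (y axis, from 0) against AA132 dose (x axis, µM, log scale) in every library. Open points are vehicle libraries, drawn at the left, and bars are means of 3. MCM7, MCM3, MCM10 and MCM2 are lowest at 30 µM, and ORC5 and RPA2 are highest there or at 10 µM.

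AA132 and AA147 were compared at the one dose they share, 10 µM, a single pair. In this comparison 0 of 49 genes were called by edgeR's quasi-likelihood test and 0 by DESeq2, and 2 had an unadjusted p under 0.05. They were ORC6 (0.18 ± 0.07, AA132 minus AA147) and RPA2 (0.17 ± 0.06). Over all genes 0.0674% were called by adjusted p, which is no background for the unadjusted count. The 95% intervals of all 49 differences lay between -0.31 and 0.45, so a difference of 0.5 or more on the log2 scale was outside the interval of each gene.

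Tg (500 nM) was also tested directly against 30 µM AA132, the AA132 dose with the most genes called. The compounds and their doses both differ. Of the 49 genes 23 were called, 6 higher and 17 lower with Tg, where 29.8% of all genes were called (15.5% higher and 14.3% lower). CDC6, at 194, 209.9 and 220.2 CPM with 30 µM AA132, was 2.18-fold higher with Tg (log2 fold change 1.12 ± 0.06, adjusted p = 2.62e-16). CDC45, at 109, 111 and 118 CPM with AA132, and RFC1, at 97.3, 103 and 93.5 CPM, were higher with Tg by 0.73 ± 0.06 and 0.47 ± 0.06 on the log2 scale (adjusted p = 6.91e-11 and 3.52e-07). None of these 3 genes overlapped between the treatments. POLD2 was at 369.6, 337 and 358 CPM with Tg and 263, 282 and 314 with AA132 (log2 fold change 0.31 ± 0.09, adjusted p = 0.00581). POLA1, the catalytic subunit of polymerase alpha, was at 135, 136 and 133 CPM with Tg and 105, 115 and 113 with AA132 (0.28 ± 0.07, adjusted p = 0.00342). PRIM1 was higher as well (0.26). The POLD2 and PRIM1 calls were each lost without 1 library, the first 30 µM library (adjusted p = 0.0523) and the first Tg library (0.058). RFC4 was called higher without the first vehicle library (0.20, adjusted p = 0.0477), and RFC2 without the third 30 µM library (0.22, 0.0366).

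The largest differences in the other direction were those of CCNE1, at 68.9, 68.2 and 74.2 CPM with 30 µM AA132 (log2 fold change -0.76 ± 0.08, adjusted p = 2.04e-09), and ORC1, at 49.3, 50.2 and 51.6 CPM (-0.66 ± 0.06, adjusted p = 3.68e-10). Both stood with AA132 at or above their vehicle mean, and the Tg libraries did not reach them. MCM5 was at 233, 219 and 220.4 CPM with AA132 (-0.48 ± 0.07, adjusted p = 1.94e-06), CLSPN at 146, 155 and 150.1 (-0.44 ± 0.06, adjusted p = 1.40e-06) and GINS4 at 9.99, 9.94 and 9.96 (-0.46 ± 0.14, adjusted p = 0.0107). MCM2 and MCM3, which fell with both treatments, were lower with Tg than with AA132 (log2 fold changes -0.20 and -0.12). For MCM7 no difference was called (-0.03 ± 0.05). The other genes called lower with Tg were PCNA (-0.42), POLE2 (-0.43), GINS1 (-0.32), RPA2 (-0.29), CDT1 (-0.29), MCM6 (-0.28), MCM4 (-0.28), RPA1 (-0.22), ORC6 (-0.21) and POLE (-0.19). Among the lower genes, 4 calls were lost without some library: CDT1 without any of 5, MCM3 without any of 4, ORC6 without the first or the third 30 µM library (adjusted p = 0.0887 and 0.0534) and POLE without the first (0.0525).

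The 8 genes below were followed through every condition whether called or not. CDC6 averaged 202 ± 10.6 CPM with AA147 and between 195 ± 2.76 at 1 µM and 212 ± 3.49 at 15 µM of AA132, close to its vehicle mean, so that of the 11 conditions only Tg stood apart. PCNA averaged 337 ± 19.4 with AA147 and between 306 ± 8.74 at 3 µM and 339 ± 15.8 at 30 µM of AA132, and MCM2 198 ± 3.77 with AA147 and between 186 ± 4.48 at 30 µM and 216 ± 10.8 at 0.1 µM. POLA1 averaged 120.3 ± 6.40 with AA147 and between 111 ± 5.11 at 30 µM and 125 ± 8.58 at 1 µM, and its Tg mean was 135 ± 1.70. RRM2 averaged 226 ± 23.4 with AA147 and between 222 ± 2.33 at 0.3 µM and 246 ± 17.5 at 30 µM, and TYMS 222 ± 6.91 and between 209 ± 3.28 at 30 µM and 227 ± 13.0 at 0.1 µM. For RRM2 the 30 µM mean was the highest of all conditions, with libraries at 264, 246 and 229 CPM that reached into the range of the others. E2F1 averaged 61.9 ± 1.33 with AA147 and between 65.4 ± 4.54 at 15 µM and 69.2 ± 3.98 at 10 µM, and CCNE2 36.7 ± 9.30 and between 28.8 ± 0.760 at 3 µM and 37.2 ± 9.59 at 10 µM. CCNE2 had the widest spread of the 8 relative to its mean, with 47.4, 32.1 and 30.6 CPM in the AA147 libraries.

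With all libraries in the fit described here, 16 of the 49 genes were called in none of the 12 comparisons and had no called slope: ORC3, ORC4, GINS2, GINS3, POLA2, POLD3, RFC2, RFC3, RFC4, RFC5, RPA3, RRM1, RRM2, UNG, E2F1 and CCNE2. Other settings called some of them, such as UNG and E2F1 under Tg and ORC4 at 10 µM AA132. The 16 include the 4 small clamp loader subunits and both subunits of ribonucleotide reductase. The share of all genes never called is not given here, so 16 of 49 is not set against a background. At the other end, 5 genes were called lower both with Tg and with 30 µM AA132 (MCM2, MCM3, MCM7, MCM10 and LIG1), in comparisons that share the vehicle libraries. Of all genes, 15% were called lower with Tg and 3.19% with 30 µM AA132. The share called lower in both is not given here, so the 5 have no background.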

How the data were processed

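RNA of HEK293T cells was sequenced in 11 conditions. The authors deposited expected counts, that is estimated counts of reads per gene called linear total reads per the file headers, not scaled between libraries, for 38074 gene entries in 33 columns, with 3 per condition. The genome build was GRCh38.p7, per the submitters' processing notes. How strand was used, the aligner, the counter and the gene models are not given in the sources used here. The value 0.009 stands in place of 0 in 43.5% of cells, and 3.22% of cells are fractional.

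The 0.009 was set to 0 and the counts were rounded to whole numbers. The 98 entries that share a name were summed, which left 38021 genes, and 28 names that read as dates were kept as written. Columns were mapped to conditions by name, and 0 value columns were left unmapped. Genes were filtered with filterByExpr, scaled by TMM and tested by edgeR 4.0.16 (with limma 3.58.1, the data.table package 1.17.8 and R 4.3.3) in 1 quasi-likelihood fit over the 11 conditions with no block. P-values were adjusted by Benjamini and Hochberg over all genes tested, with a threshold of 0.05. The dose slope was fitted on log10 dose over the 24 AA132 libraries. CPM values use the scaled library sizes, and log2 CPM a prior count of 2. Totals per library, given with the results, limit the precision for weakly expressed genes. The steps were tested on data simulated over all genes tested. For Tg against vehicle, 4.5% of 1.2-fold, 28% of 1.3-fold, 57% of 1.5-fold and 78% of 2-fold changes were recovered. False calls were at most 7.69% of these calls, and 0 genes were called where nothing was changed. A gene that was not called may therefore still differ by a small amount. Promoters came from RefSeq (GRCh38.p14), and positions and transcript lengths from GENCODE on GRCh38.

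Alternatives were DESeq2 1.42.0, other scalings, no filter, only the 2 conditions compared, a replicate block, a minimum log2 fold change of 0.5 and each library left out in turn. Values in every library are given, under Tg, for up to 3 called genes of each class with the largest fall and up to 2 with the largest rise. In the other comparisons they are given for up to 5 called genes each way, and for the slope for up to 3. CDC6, MCM2, PCNA, POLA1, RRM2, TYMS, E2F1 and CCNE2 are followed in all conditions, and up to 3 called genes each way are named from the other lists. One of the genes so chosen is not reported here. The members and lists were chosen with earlier results of these data known.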

Additional observations from a re-analysis of the deposited data

How the results depend on the processing

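Of 511 counts of called genes under another setting, 470 stayed within 1.5 times the reported count, and no call changed direction. The 470 include counts of 0 that stayed 0 in the comparisons with no gene called, so they overstate how steady the other counts were. Among fits that left out 1 library, the count moved by more in 4 of 33 at 10 µM, 21 of 33 at 15 µM and 4 of 33 at 30 µM. It did so in 1 of 24 for the slope, and in 0 of 33 under Tg and in Tg against 30 µM AA132. Of 67 calls, 46 held in every fit that left out 1 library, 0 were lost with DESeq2 and 10 were lost without a filter on low counts. With only the 2 conditions fitted 16 were lost, all in comparisons with vehicle. In Tg against 30 µM AA132 the same setting gained RFC4 (0.20, adjusted p = 0.0341) and RPA3 (-0.21, 0.0173). Such a fit has fewer libraries to estimate the spread, but that of Tg against 30 µM AA132 has as few and lost no call. Over the replication genes, the root mean square distances of the vehicle libraries from their mean were 0.166, 0.107 and 0.0882 (log2 scale). Those of the Tg libraries were at most 0.0467 and those of 30 µM AA132 at most 0.0740. The main fit draws its spread from all 11 conditions, which may be smaller than that of vehicle alone. The cause of the losses was not tested. With a minimum log2 change of 0.5, the count under Tg went from 24 to 5, that in Tg against 30 µM AA132 from 23 to 4, and those at 15 µM, at 30 µM and for the slope to 0. Without a filter the counts were 1 at 10 µM, 1 at 15 µM and 2 at 30 µM. With only the 2 conditions they were 16 under Tg and 0 at 15 and 30 µM. DESeq2 called 1 gene at 10 µM. It also gained UNG and PRIM1 under Tg, LIG1 at 15 µM, and MCM8 and TYMS at 30 µM. Further gains were PRIM2 in Tg against 30 µM AA132 and the slopes of GINS3 and LIG1. Their adjusted p ran from 0.0282 (LIG1 at 15 µM) to 0.0493 (PRIM1). Leaving out 1 library gave 22 to 27 under Tg, 0 to 1 at 10 µM, 1 to 4 at 15 µM, 2 to 10 at 30 µM, 19 to 24 in Tg against 30 µM AA132 and 6 to 13 for the slope. Except where a change is built into the setting, the cause was not tested. The labels do not say what the column numbers mean. In no comparison did the deviations of all 3 same-numbered pairs correlate above 0.1. The first libraries of 10 µM AA132 and AA147 did (0.183), and pairs of unlike number reached 0.222. Deviations from means of 3 libraries cannot show whether same-numbered columns share a batch. The replicate block gave 25 under Tg, 7 at 30 µM and 13 for the slope. With it 0 calls were lost and 3 gained (UNG under Tg, POLA1 at 30 µM and the slope of POLD2). Depth limits GINS4 most, the gene with the fewest counts.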
